A study of Rattus norvegicus with 8 samples.

Results

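The dermal collagens and fibroblast matrix genes described here are 10 genes taken by Ensembl identifier from a rat skin count table of 26404 identifiers, and all 10 were present and passed the filter on low counts. They are the fibrillar collagen genes Col1a1 (ENSRNOG00000003897), Col1a2 (ENSRNOG00000011292), Col3a1 (ENSRNOG00000003357), Col5a1 (ENSRNOG00000008749) and Col5a2 (ENSRNOG00000003736), and the matrix genes Sparc (ENSRNOG00000012840), Lum (ENSRNOG00000004610), Dcn (ENSRNOG00000004554), Lox (ENSRNOG00000014426) and Fn1 (ENSRNOG00000014288). The count table holds identifiers alone, so each symbol is the one that came with its identifier in the list of genes chosen. Skin came from the dorsal hind paw of Sprague-Dawley rats weighing 125 to 200 g and anaesthetised with urethane, at the places where microdialysis probes had been set. Burn skin is from a paw held in saline at 60 °C for 2 minutes, a deep partial-thickness scald, and control skin is from an opposite paw held in saline at room temperature. There were 4 burn and 4 control libraries, all made from poly(A)-enriched RNA, and the control paws belonged to animals that also carried a burn. The sources used here state neither how long after the scald the skin was removed, nor which paws shared a rat, nor whether the 4 libraries of a group came from 4 animals. The p-values therefore reflect only how far these 8 samples spread, which may be technical in part.

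The dermis is mostly collagen that fibroblasts secrete. Type I collagen, a trimer of the Col1a1 and Col1a2 chains, and type III collagen, made of Col3a1 chains, form the bulk of its fibrils. Type V collagen, from Col5a1 and Col5a2, sits inside the fibrils and controls how they start and how thick they grow. Decorin (Dcn) and lumican (Lum) are small proteoglycans that coat fibrils, lysyl oxidase (Lox) starts the crosslinks between collagen molecules, SPARC binds collagen outside the cell, and fibronectin (Fn1) is an adhesive glycoprotein on which fibrils assemble. In whole skin, fewer fibroblasts and less RNA in each fibroblast cannot be told apart.

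Promoter windows were at hand in RefSeq (build GRCr8) for 5 of the 10 genes, Col1a2, Col5a1, Col5a2, Sparc and Lum, each running from 250 bases before to 50 bases after the annotated start. They were searched on both strands for CCAAT, for TATAAA and for GGGCGG, which do not overlap one another where found here. CCAAT was found in Col1a2 and Lum and occurs in 37.5% of all 33469 windows, TATAAA was found in Col1a2 alone and occurs in 14.2%, and GGGCGG was found in Col5a1 alone and occurs in 33.1%. The stretch of Col1a2 that holds both of its matches (chr4:33518307-33518406, plus strand) is printed beside the 100 bases just before the start of Sparc (chr10:40038817-40038916, minus strand), the gene with the smallest fitted difference of the 10, with matches in capitals. The first base of the CCAAT match, read here as its reverse complement, lies 221 bases before the annotated start of Col1a2, and that of TATAAA lies 170 bases before it. These distances hold for the RefSeq start alone, which may lie downstream of the start in use in skin. A match is only a run of letters, and a window without one says nothing of the factors that act there.
Col1a2: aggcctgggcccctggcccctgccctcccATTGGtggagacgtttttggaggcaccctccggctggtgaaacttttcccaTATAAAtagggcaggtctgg
Sparc: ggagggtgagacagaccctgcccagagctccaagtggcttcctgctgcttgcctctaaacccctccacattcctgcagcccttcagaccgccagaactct

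Libraries held 13693811 to 18738652 counts in burn skin and 17824830 to 26837925 in control skin. Burn replicate 3 stood apart from the rest, in which 15354 genes were detected by a count, whereas 17322 to 17547 were detected in the remaining burn libraries and 17338 to 17492 in control libraries. Burn replicate 3 also had the lowest normalised level of each of the 10 genes, and its part in the results was examined by leaving it out. That level rests on a TMM scaling factor of 1.20, against 0.807 to 0.894 in the other burn libraries. By share of counts, burn replicate 1 was lower than burn replicate 3 for Col5a1 and Lum. Markers of keratinocytes, muscle, blood and other cells of skin were not analysed here, because the table does not pair their identifiers with names, so whether the makeup of the samples moved with these genes was not tested.

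The matrix genes took a far smaller part of the burn libraries than of the control libraries. Together the 10 genes held 1.06%, 4.14%, 0.797% and 5.53% of the counts of burn replicates 1 to 4, against 14.8%, 12.5%, 9.58% and 17.8% for control replicates 1 to 4. The shares averaged 2.88% ± 2.33 in burn and 13.7% ± 3.49 in control (SD, n = 4 each), a ratio of 0.211, and the highest burn library was still under the lowest control library. The exact binomial 95% interval of the share was 0.793% to 0.801% in burn replicate 3 and 9.57% to 9.60% in control replicate 3, so counting error was small beside the spread between libraries. The burn mean was 3.58% without burn replicate 3. Such a share also depends on every other gene in the library: with the 25 most abundant other genes taken out of the total, the means were 4.66% in burn and 15.7% in control.

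**Figure D1:**
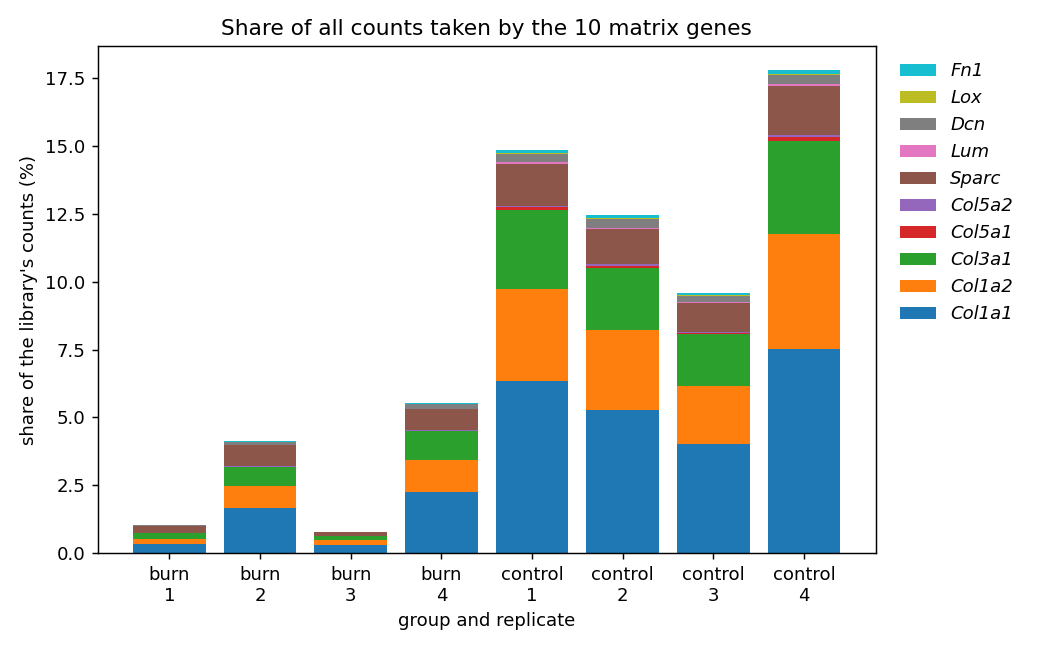
Share of each library's counts (%, vertical axis) taken by the 10 matrix genes, stacked by gene, for burn replicates 1 to 4 on the left and control replicates 1 to 4 on the right. The burn bars reach 0.797% to 5.53% and the control bars 9.58% to 17.8%, and Col1a1, Col1a2 and Col3a1 make up most of each bar.

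Type I and type III collagen made up most of that share. Col1a1, Col1a2 and Col3a1 together held 0.740%, 3.17%, 0.634% and 4.50% of the counts of burn replicates 1 to 4, against 12.7%, 10.5%, 8.07% and 15.2% for control replicates 1 to 4. Within the counts of the 10 genes they formed 70.1% to 81.3% in burn and 84.2% to 85.4% in control. In each of the 4 control libraries Col1a1 had more counts than any other gene, not corrected for transcript length, whereas in burn replicates 1 to 4 it ranked 19, 11, 21 and 7. Of the 10 genes, 1 to 4 were among the 25 with most counts in a burn library, and 4 or 5 in a control library.

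Levels were compared as log2 CPM, counts relative to library size with TMM factors, on a log2 scale, and tested with the quasi-likelihood test of edgeR adjusted over all 14240 genes tested. Of the 10 genes, 2 fell in burn skin at an adjusted p under 0.05, Col5a1 and Lox, and 0 rose, while 10% of all genes tested were called lower and 11.9% higher. The other 8 had negative fitted differences that did not pass this threshold. At an unadjusted p under 0.05 the test picked 9 of the 10 genes, all lower in burn. It picked 37.8% of all genes tested, higher and lower ones counted together. All burn values lay below all control values for 9 of the 10 genes, the exception being Sparc, while 15.6% of all genes tested showed that separation. The median log2 fold change was -1.91 over the 10 genes and 0.06 over all genes tested. The fits with DESeq2, limma voom and voom with quality weights called 9, 6 and 8 of the 10 genes lower, and scaling by library size alone in edgeR called 8, with Col5a1 and Lox among them in each. Over all genes tested the same fits called 15.5%, 11.7% and 15.0% lower, and library size alone called 15.0% lower. Wide spread among burn libraries accompanied these results: the median SD of log2 CPM over the 10 genes was 1.53 in burn and 0.43 in control, against 0.52 in burn and 0.25 in control over all genes.

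Lox had the largest fitted fall. Its levels in burn replicates 1 to 4 were 3.06, 5.16, -0.57 and 5.43 log2 CPM, against 7.60, 8.05, 7.03 and 8.38 log2 CPM in control replicates 1 to 4. Every burn value was thus below the lowest control value by at least 1.61 log2 units, and burn replicate 3, with 11 counts, was far below the rest. The fitted log2 fold change was -3.40 (SE 0.98, edgeR adjusted p = 0.0392), a fall of 10.6-fold, and 0.288% of the genes tested had a lower one. The size of the fall depended on how the burn libraries were weighted: Lox averaged 3.27 ± 2.77 log2 CPM in burn and 7.77 ± 0.58 in control (SD, n = 4 each), a difference of -4.50, and limma voom fitted -4.64 (adjusted p = 0.0198). The call was lost without burn replicate 1, at a log2 fold change of -3.13 (edgeR adjusted p = 0.0965), and without control replicates 1 to 4, at -3.48, -3.33, -3.60 and -3.17 (edgeR adjusted p = 0.0760, 0.0903, 0.0629 and 0.0901). Without burn replicate 3 it passed, at -2.99 with an edgeR adjusted p of 0.00999. With no filter on low counts, which called 6.77% of the 20370 genes then tested lower, the log2 fold change was -3.45 (edgeR adjusted p = 0.0514).

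Col5a1 also fell, and its fall passed the adjusted p threshold of each of the 17 alternative settings. It had 6.36, 7.58, 6.12 and 7.74 log2 CPM in burn replicates 1 to 4, against 9.66, 9.58, 8.96 and 10.15 log2 CPM in control replicates 1 to 4. The groups were 1.23 log2 units apart at their nearest, and the burn SD of 0.83 was the smallest of the 10 genes. The fitted log2 fold change was -2.53 (SE 0.43, edgeR adjusted p = 0.00786), a fall of 5.77-fold. Over the alternatives it ranged from -2.81 to -2.31, with an adjusted p of 7.13e-08 to 0.0297.

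Col5a2, which encodes the partner chain in the main form of type V collagen, had 6.44, 8.13, 5.85 and 8.32 log2 CPM in burn replicates 1 to 4, against 8.91, 8.94, 8.49 and 9.43 log2 CPM in control replicates 1 to 4. The groups did not overlap but came within 0.17 log2 units. Its fitted log2 fold change of -1.44 (SE 0.53) did not pass (edgeR adjusted p = 0.0837).

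The genes of type I collagen varied together. Col1a1 had 12.01, 14.33, 11.37 and 14.63 log2 CPM in burn replicates 1 to 4, against 15.86, 15.58, 15.11 and 16.14 log2 CPM in control replicates 1 to 4. Col1a2 had 11.06, 13.29, 10.35 and 13.70 log2 CPM in burn, against 14.96, 14.75, 14.19 and 15.30 log2 CPM in control, in the same order of replicates. For both genes burn replicates 2 and 4 lay nearest to the controls and burn replicates 1 and 3 far below them. The fitted log2 fold changes were -2.04 (SE 0.76, edgeR adjusted p = 0.0854) for Col1a1 and -2.14 (SE 0.75, edgeR adjusted p = 0.0700) for Col1a2, so neither passed. Without burn replicate 3 these were -1.70 and -1.81, at edgeR adjusted p = 0.0610 and 0.0517, and without burn replicate 4 Col1a2 passed, at -2.73 with an edgeR adjusted p of 0.0498. Leaving out burn replicate 1 gave an edgeR adjusted p of 0.165 for Col1a1 and 0.140 for Col1a2. Leaving out control replicates 1 to 4 in turn gave 0.158, 0.152, 0.118 and 0.175 for Col1a1. For Col1a2 the same refits gave 0.133, 0.132, 0.0976 and 0.151.

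Col3a1 had 11.32, 13.10, 10.40 and 13.52 log2 CPM in burn replicates 1 to 4, against 14.74, 14.38, 14.05 and 15.01 log2 CPM in control replicates 1 to 4. It followed the order of the type I genes, and its groups stood 0.53 log2 units apart. The fitted log2 fold change was -2.01 (SE 0.68, edgeR adjusted p = 0.0632). It passed without burn replicate 3, at -1.68 with an edgeR adjusted p of 0.0401, and without burn replicate 4, at -2.55 with an edgeR adjusted p of 0.0443. It did not pass without burn replicates 1 and 2 in turn (edgeR adjusted p = 0.136 and 0.0572). Nor did it without control replicates 1 to 4 in turn (edgeR adjusted p = 0.126, 0.119, 0.0929 and 0.141).

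**Figure D2:**
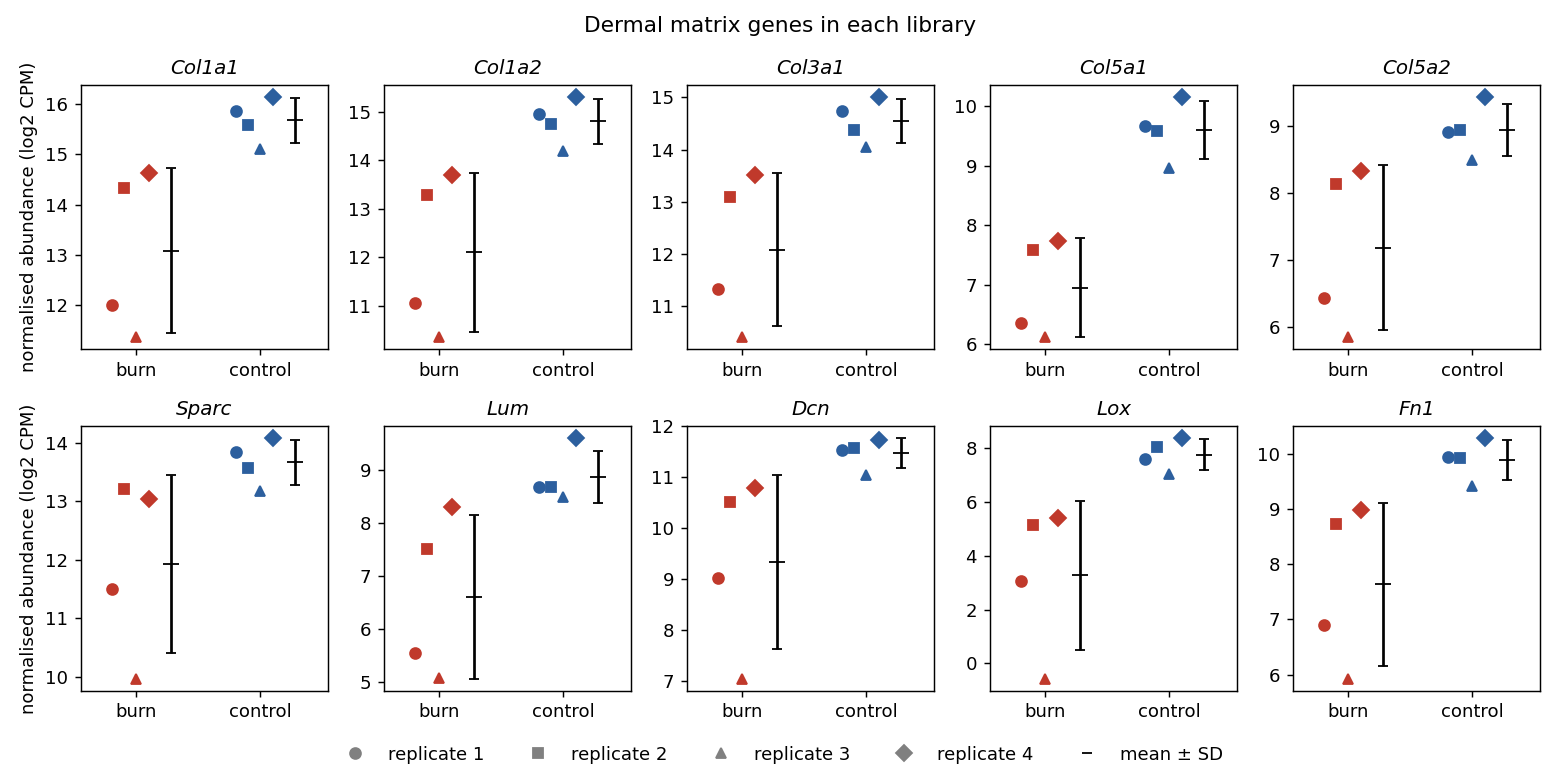
Normalised abundance (log2 CPM, vertical axis, a separate range for each gene) of the 10 matrix genes in each library, burn in red on the left and control in blue on the right of each panel, with the shape marking the replicate and the black bar the mean and SD (n = 4). In every panel burn replicates 2 and 4 lie above burn replicates 1 and 3, and only for Sparc do the groups overlap.

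Of the proteoglycans, decorin had 9.02, 10.52, 7.05 and 10.78 log2 CPM in burn replicates 1 to 4, against 11.54, 11.57, 11.05 and 11.73 log2 CPM in control replicates 1 to 4. The Dcn control values were the tightest of the 10 genes (SD 0.29, n = 4) whereas its burn values (SD 1.71, n = 4) were spread more widely than those of any other of the 10 genes but Lox. Lumican had 5.56, 7.51, 5.08 and 8.31 log2 CPM in burn, against 8.69, 8.68, 8.50 and 9.60 log2 CPM in control. The groups were separate for each gene, by 0.27 log2 units for Dcn and 0.19 for Lum. The fitted log2 fold changes, -1.57 (SE 0.66, edgeR adjusted p = 0.118) for Dcn and -1.76 (SE 0.67, edgeR adjusted p = 0.0921) for Lum, did not pass. Without burn replicate 4 Lum passed, at -2.49 with an edgeR adjusted p of 0.0349. Lum did not pass without burn replicates 1 to 3 in turn (edgeR adjusted p = 0.171, 0.0982 and 0.101). Nor did it without control replicates 1 to 4 in turn (edgeR adjusted p = 0.142, 0.152, 0.125 and 0.210).

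Fibronectin had 6.89, 8.73, 5.93 and 8.99 log2 CPM in burn replicates 1 to 4, against 9.93, 9.92, 9.41 and 10.28 log2 CPM in control replicates 1 to 4. All burn values lay below all control values, and the fitted log2 fold change of Fn1 was -1.80 (SE 0.61, edgeR adjusted p = 0.0653). It passed without burn replicate 3, at -1.47 with an edgeR adjusted p of 0.0485, and without burn replicate 4, at -2.27 with an edgeR adjusted p of 0.0464. It did not pass without burn replicates 1 and 2 in turn (edgeR adjusted p = 0.138 and 0.0512). Nor did it without control replicates 1 to 4 in turn (edgeR adjusted p = 0.122, 0.130, 0.0918 and 0.143).

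Sparc had the smallest fitted difference. It had 11.50, 13.20, 9.97 and 13.04 log2 CPM in burn replicates 1 to 4, against 13.84, 13.57, 13.17 and 14.08 log2 CPM in control replicates 1 to 4. Burn replicate 2 was above control replicate 3, so the groups overlapped. The fitted log2 fold change was -1.29 (SE 0.64, edgeR adjusted p = 0.176), and none of the 17 alternatives called it.

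**Figure D3:**
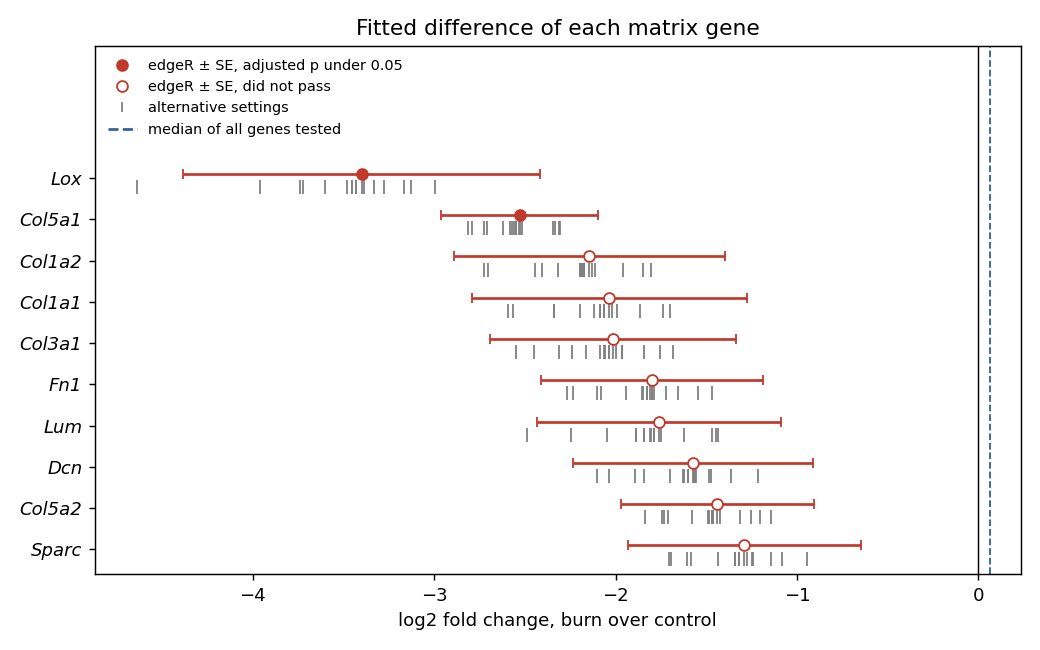
Fitted log2 fold change, burn over control (horizontal axis), of each matrix gene, with its SE as a bar, filled circles for the 2 genes with an edgeR adjusted p under 0.05 and open circles for the other 8. Grey ticks are the values under 17 alternative settings, all below 0, and the dashed line is the median of all 14240 genes tested, 0.06.

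The burn libraries kept nearly the same order in all of these genes. Burn replicates 2 and 4 were both above burn replicates 1 and 3 in 10 of the 10 genes, a pattern looked for after the values were seen, and 24.9% of all genes tested showed it. Burn replicate 4 was the highest burn library for 9 genes and burn replicate 2 for Sparc. Control replicate 4 was the highest control library for all 10. Because the fitted fold change follows the mean count, the higher burn libraries weigh most in it, and the difference between the mean log2 CPM values was larger: Col1a1 averaged 13.08 ± 1.64 log2 CPM in burn and 15.67 ± 0.44 in control (SD, n = 4 each). Among genes outside the 10, those whose log2 CPM over the 8 libraries was most like the mean standardised profile of the 10 were ENSRNOG00000005413 (Pearson r = 0.998) and ENSRNOG00000002332 (r = 0.998). Both had negative fitted differences that did not pass, log2 fold changes of -1.67 (edgeR adjusted p = 0.0615) and -1.17 (edgeR adjusted p = 0.0551). These coefficients describe 8 libraries that fall into separate groups, and no symbol is paired with either identifier.

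Ratios between the genes within a library, which do not depend on library scaling, showed where the 10 genes differed from one another. Of 5 ratios of counts tested with two-sided exact permutation tests, 3 separated burn from control. By the exact permutation test each had p = 0.0286, the smallest that 4 against 4 libraries can give, and 0.0476 after Benjamini-Hochberg adjustment over the 5. All 5 ratios were chosen with earlier results of these data known, which these p-values do not take into account. Leaving out any 1 library other than burn replicate 4 took the adjusted p of all 3 above 0.05, to between 0.0714 and 0.190 by the same exact test. Groups that are separate in the full set must stay separate when 1 library is left out, so that adds no support. Each adjusted p also depends on the other ratios, and what the rise reflects was not tested. The ratios are not corrected for transcript length and are compared only between groups.

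The ratio of Col5a1 to Col5a2 was lower in burn skin. It was 0.945, 0.682, 1.21 and 0.668 in burn replicates 1 to 4, against 1.69, 1.56, 1.39 and 1.65 in control replicates 1 to 4. The means were 0.876 ± 0.255 in burn and 1.57 ± 0.131 in control (SD, n = 4 each), a difference of -0.88 in mean log2 ratio, lower in 4 of 4 burn libraries than in any control.

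The ratio of Col1a1 to Col1a2 differed little, although its groups were separate. It was 1.92, 2.07, 2.02 and 1.89 in burn replicates 1 to 4, against 1.87, 1.78, 1.89 and 1.79 in control replicates 1 to 4. Its mean was higher by 0.11 on the log2 scale in burn, with burn replicate 4 and control replicate 3 less than 0.01 apart. The ratio of Fn1 to Col1a1 was 0.0289, 0.0205, 0.0230 and 0.0200 in burn, against 0.0165, 0.0198, 0.0192 and 0.0172 in control, higher in burn by 0.34 on the log2 scale.

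For the ratios of Col3a1 to Col1a1 and of Dcn to Lum the groups overlapped. The ratio of Col3a1 to Col1a1 was 0.505 ± 0.0844 in burn and 0.458 ± 0.0178 in control (SD, n = 4 each; exact permutation test, adjusted p = 0.50). That of Dcn to Lum was 7.1 ± 3.1 in burn and 6.2 ± 1.4 in control (SD, n = 4 each; exact permutation test, adjusted p = 0.714), and the sign of its mean log2 difference turned when burn replicate 1 or control replicate 4 was left out.

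A further pair of ratios was added after the values described here were seen and is given without a test. The ratio of Sparc to Col1a1 was 0.705, 0.457, 0.380 and 0.334 in burn replicates 1 to 4, against 0.246, 0.248, 0.260 and 0.239 in control replicates 1 to 4. All burn values were above all control values, and the control values lay close together. The ratio of Lox to Col1a1 was 0.00201, 0.00173, 0.000219 and 0.00170 in burn, against 0.00327, 0.00543, 0.00370 and 0.00462 in control, with all burn values below all control values.

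**Figure D4:**
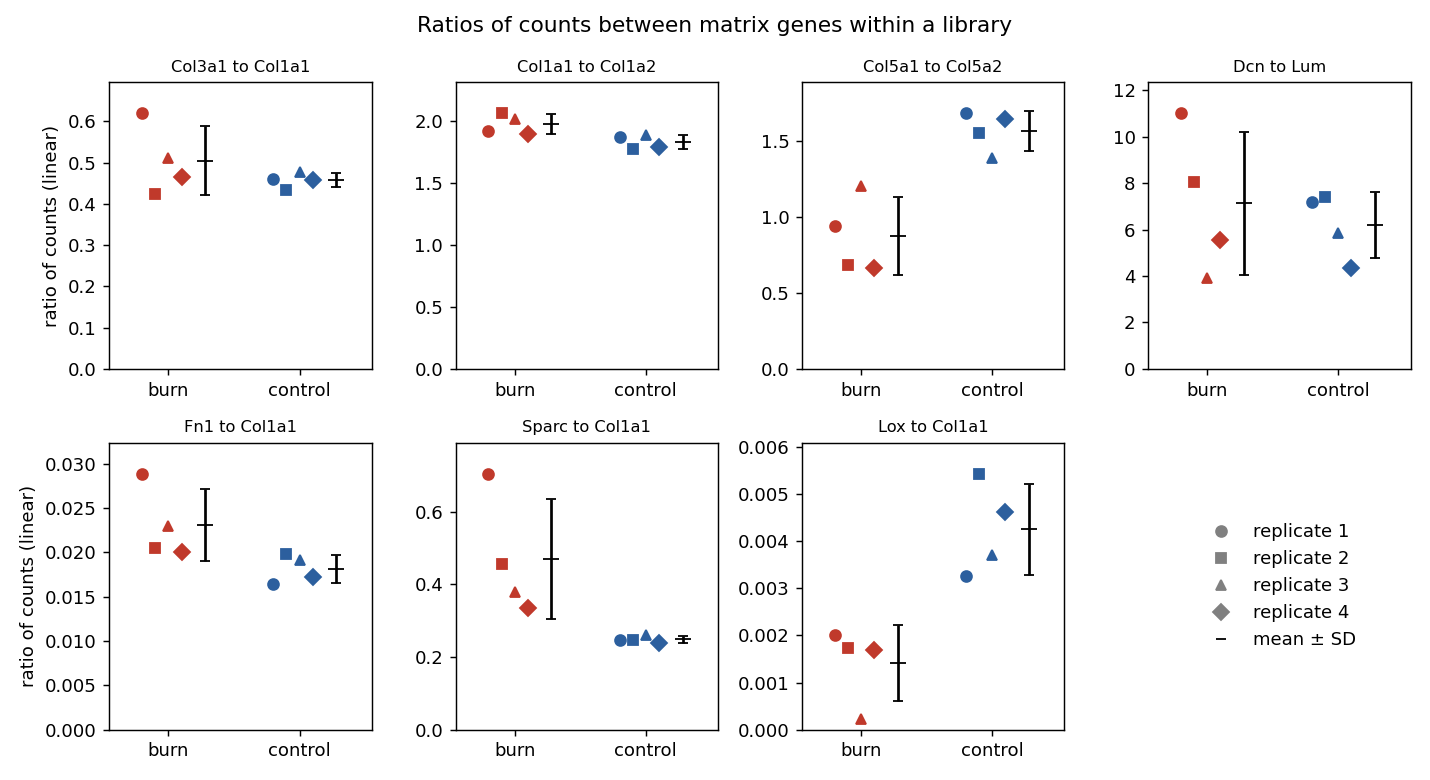
Ratios of counts between matrix genes within each library (linear vertical axes from 0), burn in red on the left and control in blue on the right of each panel, with the shape marking the replicate and the black bar the mean and SD (n = 4). The ratio of Col5a1 to Col5a2 averages 0.876 in burn and 1.57 in control, whereas the ratio of Col3a1 to Col1a1 averages 0.505 in burn and 0.458 in control, with overlapping points.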

How the data were processed

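The authors deposited raw counts of reads for each Ensembl rat gene, as whole numbers in 1 column per library. The submitters' processing notes name TopHat2 2.0.9, HTSeq 0.5.4p3, edgeR, R 3.0.1, limma and the build Rnor_5.0, with no roles; annotation release, strandedness and filtering: not given in the sources used here. Reads of overlapping or antisense genes can therefore not be told apart. Groups came from the treatment label, and replicate numbers follow accession order and pair nothing. The genes, lists and ratios were chosen with earlier results of these data known. The rule for named genes took all 10 genes and the 2 others most like their mean profile; 12 preset lists of other genes were not analysed here, since no table used here pairs the identifiers with symbols.

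Counts were tested with edgeR 4.0.16 in R 4.3.3 (quasi-likelihood, robust, TMM, default expression filter, group as the only term, two-sided, Benjamini-Hochberg over 14240 genes). The SE is the log2 fold change divided by the root of F. Log2 CPM used a prior count of 2. The procedure was tested on data simulated independently for each gene, with no library standing apart. That test does not cover spread shared between genes, as seen here among the burn libraries. Alternatives were other scalings and filters, DESeq2 1.42.0, limma 3.58.1, a threshold of 0.01 and leaving out each library. Intervals on shares are exact binomial (95%) and cover counting error only.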

Additional observations from a re-analysis of the deposited data

Results flagged for a closer look

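The values given here were screened 40 times for a library lying far from its group, 1 screen picked a library, and chance picks about 1 in 20. Burn replicate 3 had 15354 genes with at least 1 count, far below the other burn libraries.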

How the results depend on the processing

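Under 17 alternatives, all 170 log2 fold changes of the 10 genes stayed negative, those at the threshold of 0.01 being the values of the main fit again. The number called lower was 2 and became 8 with library size alone, 1 with no filter, 9 with DESeq2, 6 with limma voom, 8 with quality weights and 1 at an adjusted p of 0.01, and leaving out 1 library gave 1 to 6 (6 without burn replicate 4, 4 without burn replicate 3, 1 without burn replicate 1 or any control replicate). Among all genes, leaving out burn replicates 1 to 4 gave 795 of 14400, 1789 of 14429, 1929 of 14462 and 1168 of 14501 lower. Leaving out control replicates 1 to 4 gave 704 of 14546, 546 of 14563, 842 of 14554 and 680 of 14515 lower. The cause of the changes in the number of the 10 genes called was not tested, apart from the stricter threshold. Over all genes, 1689 were called higher and 1426 lower; library size alone gave 894 higher and 2138 lower with a median log2 fold change of -0.15 in place of 0.06, DESeq2 gave 2203 lower, limma voom 1671, quality weights 2131, no filter 1379 of 20370, a threshold of 0.01 gave 412 and 267, and leaving out 1 library gave 673 to 2314 higher and 546 to 1929 lower. Leaving out 1 library gave log2 ratio differences of 0.088 to 0.13 for Col1a1 to Col1a2, -1.05 to -0.77 for Col5a1 to Col5a2 and 0.22 to 0.40 for Fn1 to Col1a1. Each was no longer past the adjusted threshold in 7 of 8 refits. Its groups stay separate in every refit, as they must once separate in the full set. For Dcn to Lum the refits ran from -0.12 (without burn replicate 1) to 0.38, with -0.03 without control replicate 4. Summed shares stayed within 1 SD of the group mean, a wide limit in burn, where the SD was 2.33 and the mean 2.88%. With TMM effective library sizes as the total, the means were 3.31% in burn and 12.7% in control. No paired analysis was possible because the labels give no animal or replicate number. Depth limits mainly Lox, with 11 counts in burn replicate 3.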
